A study of Mus musculus with 18 samples.

Results

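Sorted cells from injured muscle of Sdc4-/- mice were compared between 48 h and 12 h after injury, 3 GeneChip arrays against 3, which are 6 of the 18 arrays of the series. The 6 arrays were chosen by the genotype and the time in their titles, and all 45101 probe sets of the array entered the comparison. Both groups came from female mice, 3 months old, on a C57Bl/6 background and homozygous for a deletion of Sdc4, the gene of the heparan sulfate proteoglycan syndecan-4. The methods state that age for the sort, and 3 to 6 months for all mice of the study. In both, the tibialis anterior muscle (TA) had been injected with 1.2% BaCl2, which kills muscle fibres, and cells freed with collagenase were sorted by FACS on immunoreactivity to syndecan-3. RNA was put through 2 rounds of T7-based amplification, and the amount put on an array corresponded to 5000 cells. The study also profiled Sdc4-/- cells of uninjured TA and wild type (WT) cells of C57Bl/6 x DBA2 females of the same age at the same 3 times, with 3 arrays a group. The deletion is carried by every cell of the mouse, so inflammatory and vascular cells of both groups lacked syndecan-4 as well, and genotype and strain differ together between Sdc4-/- and WT and cannot be told apart. The comparison asks which transcripts moved in Sdc4-/- sorted cells over the interval in which WT satellite cells are taken to go from commitment to proliferation.

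Satellite cells are the resident stem cells of skeletal muscle, lie between the fibre and its basement membrane, and are marked by the transcription factor Pax7. Injured muscle is entered first by neutrophils, then by monocytes that turn into macrophages, which take up debris through Fc and scavenger receptors, break it down in lysosomes and are replaced over days by less inflammatory cells. Syndecans are transmembrane proteoglycans whose heparan sulfate chains bind growth factors, chemokines and matrix, and syndecan-3 was the antigen of the sort.

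Values are log2 GCRMA intensities, on which a difference of 1 is a 2-fold change and on which probe sets with no detectable transcript lie near 2 to 3. A probe set was called where limma's adjusted p over all probe sets was under 0.05, and a gene symbol was represented by its probe set with the highest mean. The number of probe sets above a value of 5 was 5076, 5364 and 5565 on the 12 h arrays and 7294, 7723 and 7696 on the 48 h arrays. All 48 h arrays were above all 12 h arrays (exact permutation test, two-sided, p = 0.1, the smallest that 3 against 3 arrays allow). Among the 2287 symbols with a mean of at least 6 the median change was 1.01, against -0.03 over all 18194 symbols. Spiked hybridization controls overlapped between the times, at 10.65, 9.71 and 12.33 against 10.43, 9.94 and 8.74. The 12 h arrays also differed more among themselves, since replicate 3 correlated at 0.887 and 0.896 with the other two while the 48 h arrays correlated at 0.963 to 0.968. Beside the rises below, therefore, stands a general upward shift of bright probe sets, whose part in each rise was not tested, and counts are also given after quantile normalization and after centring each array on its bright probe sets.

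Sdc4 itself is read by a pair of probe sets, of which the dimmer measured 2.56, 2.41 and 2.56 at 12 h and 2.54, 2.60 and 2.52 at 48 h. All 6 values lie at background, and the change was 0.04 (SE 0.44, adjusted p = 0.979). In WT cells the same probe set had means of 2.94 at 12 h and 6.56 at 48 h, and the difference between the genotypes' changes was -3.59 (adjusted p = 0.0101). The brighter probe set read 4.15, 4.34 and 5.66 at 12 h and 4.15, 4.09 and 6.53 at 48 h in Sdc4-/- cells. Replicate 3 of each time was above the others on it, and its change was 0.21 (SE 0.68, adjusted p = 0.941). Where these probe sets lie relative to the deleted part of the gene was not analysed here.

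Most markers of the labelled cell type were low in both groups. Pax7 lay between 2.39 and 2.71 on the 6 arrays, Myf5, a determination factor of the myogenic lineage, between 2.61 and 3.08, and Myod1, the gene of MyoD, between 2.31 and 2.74. All 3 were within the background range at both times. Of 25 satellite cell and quiescence markers, 0 were called in either direction by limma and 16 had both group means under 4. Their mean level ran from 3.75 to 4.07 over the 12 h arrays and from 3.79 to 4.12 over the 48 h arrays, which overlap. Sdc3, the antigen of the sort, was detected at 6.51, 5.69 and 5.76 at 12 h and 5.94, 7.09 and 7.33 at 48 h. Its groups overlapped, and its change was 0.80 (SE 0.40, adjusted p = 0.337). Met, the hepatocyte growth factor receptor, had 8.32, 6.59 and 4.70 at 12 h and 7.20, 6.38 and 7.44 at 48 h, a wider spread within 12 h than between the times (change 0.47, SE 0.88, adjusted p = 0.881). Cd34, a surface sialomucin of satellite cells and endothelium, stayed at 2.45 to 2.47 on all 12 h arrays and read 2.45, 4.42 and 2.92 at 48 h (change 0.80, SE 0.41, adjusted p = 0.352).

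Macrophage transcripts were high at both times. Csf1r, the receptor of macrophage colony-stimulating factor, measured 12.49, 12.01 and 12.26 at 12 h and 13.09, 12.95 and 12.58 at 48 h, and Lyz2, lysozyme of myeloid cells, measured 11.34, 11.54 and 8.62 at 12 h and 12.72, 13.23 and 12.57 at 48 h. The 48 h values were the higher in both genes, although neither change was called (0.62, SE 0.66, and 2.34, SE 1.02). The 27 monocyte and macrophage markers had a mean level of 7.68 to 8.57 over the 12 h arrays and 9.58 to 9.66 over the 48 h arrays. Over the uninjured Sdc4-/- arrays it was 8.42 to 9.09, which overlaps the 12 h range and lies under the 48 h range. The data thus go against the satellite cell label, and the samples are called Sdc4-/- sorted cells below. Of the other cell types, endothelial markers had mean levels of 4.23 to 5.83 at 12 h and 4.15 to 5.46 at 48 h, with Pecam1 at 2.47 to 2.58 on every array, and fibroblast and fibro-adipogenic markers had 3.70 to 5.38 and 3.50 to 4.30. Smooth muscle and pericyte markers had 3.71 to 4.02 and 3.63 to 4.86, Schwann cell and tendon markers 3.66 to 3.80 and 3.70 to 3.79, lymphocyte markers 3.03 to 3.27 and 2.81 to 2.94, and sarcomere genes of the muscle fibre 3.29 to 4.53 and 3.37 to 3.69. No gene of these 6 lists was called by limma, and only the lymphocyte list had ranges that did not overlap. Every array is a mixture of cells, so fewer cells of a type and less RNA per cell cannot be told apart in any value below.

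**Figure D1:**
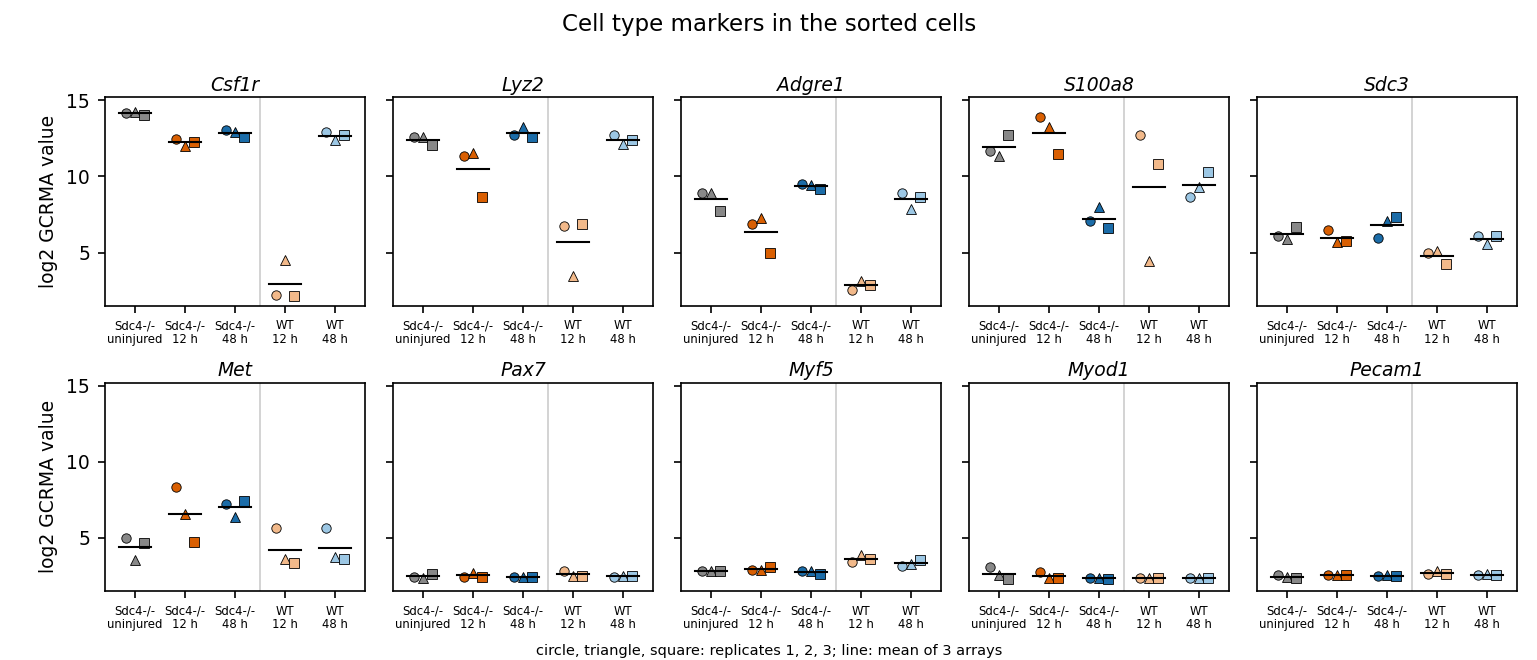
Log2 GCRMA values of 10 marker genes in the 3 arrays of each group (circle, triangle and square for replicates 1, 2 and 3; line, mean of 3 arrays), with Sdc4-/- cells left of the grey line and WT cells right of it. Csf1r and Lyz2 were high in Sdc4-/- cells at 12 h and 48 h, while Pax7, Myf5, Myod1 and Pecam1 lay near background in every group shown.

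In total 2381 probe sets (5.28%) were higher and 317 (0.703%) lower at 48 h than at 12 h. By gene symbol, 1385 of 18194 were higher (7.61%) and 149 lower (0.819%), and among the 6279 symbols with a mean of at least 4 there were 1120 higher (17.8%) and 68 lower (1.08%). A threshold of at least 2-fold with an unadjusted p of 0.01 or less took 3144 probe sets higher (6.97%) and 307 lower (0.681%). Rises outnumbered falls on the deposited scale (88.3% of called probe sets), after quantile normalization (70.7%) and with a hybridization-control covariate (78.3%), but not after a 75th percentile shift (26.2%) or when bright probe sets were centred on their median (45.2%). The median called rise was 2.13 and the largest 6.01, while the median called fall was 1.60 and the largest 8.25. At least 8-fold changes were seen in 206 symbols that rose and 34 that fell. The 3 arrays of one time lay wholly above those of the other in 1383 of the 1385 called rises and 146 of the 149 called falls, beside 20.4% of all symbols that lay wholly higher and 28.6% that lay wholly lower at 48 h. Of the called falls, 41 had a mean under 4 at both times. Of the 127 named genes that were called, 61 were not called in the fit of only the 6 arrays, which shared 46.4% of the called probe sets.

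**Figure D2:**
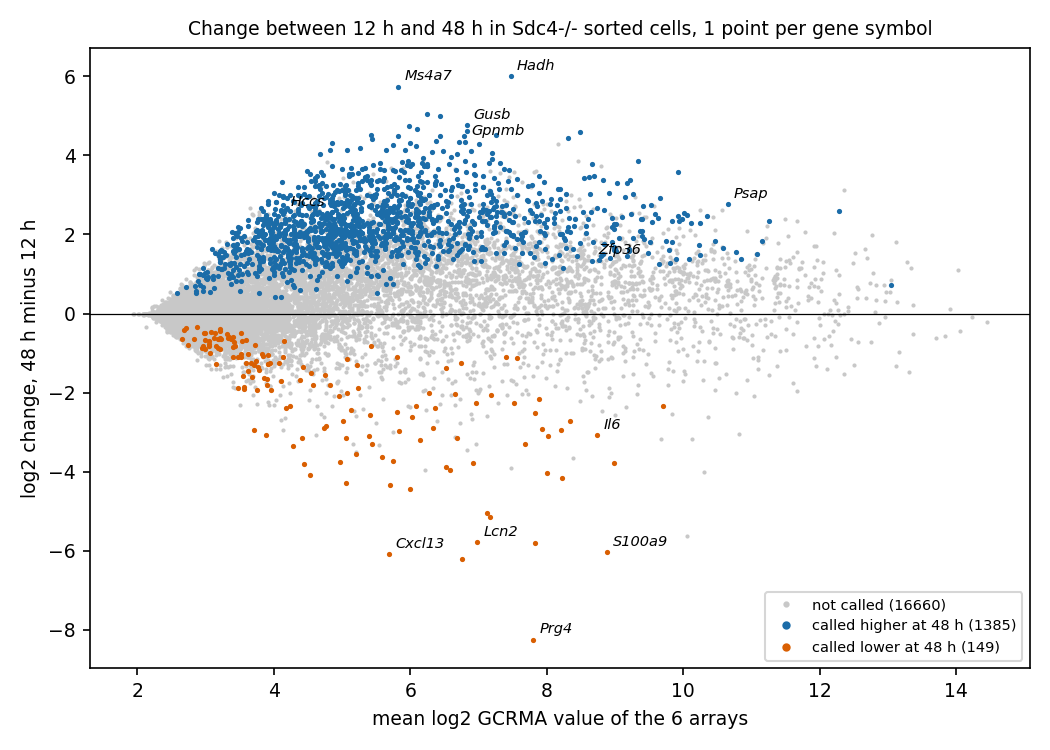
Log2 change from 12 h to 48 h in Sdc4-/- sorted cells against the mean log2 GCRMA value of the 6 arrays, with 1 point per gene symbol (blue, 1385 called higher; orange, 149 called lower; grey, not called). Called rises are more numerous on this scale (a 75th percentile shift or centring on bright probe sets turns that), and Prg4, at -8.25, is the largest change plotted.

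The 15 largest falls were taken among called genes with no overlap between the times and a mean of at least 6 at 12 h. Their brightness at 12 h and lack of overlap were therefore set by the choice, and 60 of the 149 called falls reached that mean. The genes encode secreted, membrane and intracellular proteins. Prg4, the gene of the lubricating glycoprotein lubricin, measured 12.65, 12.12 and 11.01 at 12 h and 4.68, 3.39 and 2.96 at 48 h. Its 12 h arrays were all far above its 48 h arrays (-8.25, SE 1.41, adjusted p = 0.00458), and its uninjured mean was 5.53. Hdc, histidine decarboxylase, which makes histamine, went from 11.51, 10.75 and 9.96 to 4.51, 5.54 and 4.75 without overlap (-5.81, SE 0.96, adjusted p = 0.00363). Chil1, a secreted chitinase-like protein, read 11.74, 9.25 and 8.25 at 12 h and 4.24, 5.23 and 4.33 at 48 h (-5.15, SE 0.88, adjusted p = 0.00458). Replicate 1 was the brightest 12 h array for all 3 genes, and the calls held with each array left out in turn, although Chil1 was not called in the fit of only the 6 arrays. G0s2, an inhibitor of triglyceride lipase, fell from 11.38, 10.34 and 7.86 to 3.71, 4.06 and 3.21 (-6.20, SE 1.29, adjusted p = 0.0134), but was not called without 12 h replicate 1 or without 48 h replicate 3 (highest adjusted p = 0.0603). Ptx3, a soluble pattern recognition receptor, fell from 8.55, 7.41 and 5.65 to 3.35, 2.72 and 2.69 (-4.28, SE 0.86, adjusted p = 0.0109).

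Among the other large falls, Wfdc21, a small secreted whey acidic protein family member, went from 9.58, 7.94 and 7.14 to 3.78, 4.12 and 3.46 (-4.43, SE 0.61, adjusted p = 0.00135). Retnla, a secreted product of alternatively activated macrophages, measured 9.48, 11.07 and 9.53 at 12 h and 6.30, 6.25 and 5.43 at 48 h (-4.03, SE 0.63, adjusted p = 0.00254). Its uninjured mean was 12.72, so it was lower at 48 h than in either other Sdc4-/- group. Serpinb2, an inhibitor of urokinase, fell from 11.02, 10.03 and 9.87 to 5.20, 5.94 and 7.28 (-4.17, SE 0.93, adjusted p = 0.0191). Cyp1a1, a monooxygenase induced through the aryl hydrocarbon receptor, went from 8.11, 3.85 and 7.75 to 2.98, 2.25 and 2.23 (-4.08, SE 0.87, adjusted p = 0.0156). Neither gene kept its call with every array left out. Serpinb2 lost it without 12 h replicate 1, 48 h replicate 1 or 48 h replicate 2 (highest adjusted p = 0.0775), and Cyp1a1 without 12 h replicate 1 or 3 or 48 h replicate 2 or 3 (highest adjusted p = 0.0656).

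Of 16 neutrophil markers 5 were called lower and 0 higher (31.2%, against 0.819% of all symbols), and the median change of the list was -1.09. S100a9, a subunit of calprotectin, measured 12.75, 12.28 and 10.67 at 12 h and 5.54, 6.74 and 5.31 at 48 h (-6.04, SE 1.28, adjusted p = 0.0152). All 12 h arrays exceeded all 48 h arrays, but the call was lost without 12 h replicate 1 or 48 h replicate 3 (highest adjusted p = 0.0623). S100a8, its partner subunit, had 13.89, 13.24 and 11.47 at 12 h and 7.05, 8.01 and 6.64 at 48 h, a change as wide (-5.63, SE 1.56) that was not called (adjusted p = 0.0553). Trem1, an activating receptor of neutrophils and monocytes, fell from 9.57, 8.59 and 7.25 to 3.76, 4.69 and 5.34 (-3.88, SE 0.67, adjusted p = 0.00472), and it alone of the 5 was called with each array left out, but not in the fit of only the 6 arrays. Il1r2, the decoy receptor of interleukin-1, fell from 10.16, 9.91 and 5.61 to 5.13, 4.32 and 4.34, where 12 h replicate 3 was far below the other 12 h arrays (-3.96, SE 0.95, adjusted p = 0.0277). Stfa2l1, a stefin family member, had the same low 12 h replicate 3, at 7.57, 7.34 and 3.62 against 3.25, 3.21 and 3.37 (-2.90, SE 0.75, adjusted p = 0.0394). Mmp9, gelatinase of neutrophil granules, fell from 8.60, 8.12 and 6.61 to 3.85, 5.27 and 5.52 (-2.90, SE 0.71, adjusted p = 0.0316). Il1r2 and Stfa2l1 lost their calls when any array other than 12 h replicate 3 was left out (highest adjusted p = 0.115 and 0.151), and Mmp9 without 12 h replicate 1 or 2 or 48 h replicate 1 or 2 (highest adjusted p = 0.127). With single arrays left out the list held 1 to 6 called falls, and after quantile normalization S100a9, Mmp9 and Trem1 remained of the 5.

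Some granule genes of neutrophils were at background throughout. Mpo, myeloperoxidase, lay between 2.28 and 2.33 and Elane, neutrophil elastase, between 2.34 and 2.56 on the 6 arrays. Ngp, a granule protein of maturing neutrophils, read 6.44, 5.32 and 4.16 at 12 h and 4.13, 3.39 and 4.10 at 48 h (-1.43, SE 0.64, adjusted p = 0.272), and Csf3r, the receptor of granulocyte colony-stimulating factor, read 6.02, 5.22 and 3.31 and then 3.29, 4.26 and 3.48 (-1.17, SE 0.49, adjusted p = 0.234). The mean level of the 16 markers was 5.48 to 7.25 over the 12 h arrays and 4.41 to 4.58 over the 48 h arrays. Over the uninjured Sdc4-/- arrays it was 5.74 to 6.81, within the 12 h range, so the 12 h level was not above the uninjured one. Of the 16 markers, 5 had means under 4 at both 12 h and 48 h. The level of the list moved with the falls in the acute-phase, chemokine and cytokine genes that follow, and its part in them was not tested.

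Acute-phase genes and metallothioneins held 13 measured members, of which 2 were called lower (15.4%, against 0.819% of all symbols) and 0 higher, with a median change of -0.98 and all 13 changes below 0. Lcn2, a lipocalin that binds bacterial siderophores, measured 12.01, 9.44 and 8.19 at 12 h and 3.64, 4.31 and 4.30 at 48 h. Lcn2 was lower on every 48 h array than on any 12 h array, and the fall was 55.5-fold (-5.79, SE 0.99, adjusted p = 0.00463). Steap4, a metalloreductase, fell from 9.04, 7.97 and 6.64 to 3.58, 3.62 and 3.40 (-4.35, SE 0.81, adjusted p = 0.00698). Both calls held with each array left out, but Lcn2 was not called in the fit of only the 6 arrays, nor Steap4 in that of all 18. Saa3, a serum amyloid A made by macrophages in the mouse, read 12.94, 11.74 and 12.28 at 12 h and 8.17, 8.39 and 8.36 at 48 h without overlap but was not called (-4.02, SE 1.26, adjusted p = 0.0928). Mt1 and Mt2, the metallothioneins, were at 11.69 to 12.11 and 10.98 to 11.28 at 12 h and at 10.90 to 12.06 and 9.36 to 10.74 at 48 h, and neither was called (adjusted p = 0.73 and 0.566).

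Chemokines changed in both directions, with 2 of 23 measured members lower (8.7%) and 4 higher (17.4%) and a median of -0.18. Among the 22 with a mean of at least 4, 4 were higher and 2 lower, beside 17.8% and 1.08% of all such symbols. The share of rises was thus near that of all symbols of this brightness. Cxcl13, which draws B cells through Cxcr5, measured 8.96, 7.22 and 10.00 at 12 h and 2.54, 2.46 and 2.95 at 48 h. It was bright on every 12 h array and at background on every 48 h array (-6.08, SE 0.84, adjusted p = 0.00134). Cxcl5, a neutrophil chemoattractant acting through Cxcr2, fell from 10.04, 10.63 and 8.24 to 5.42, 2.80 and 5.59 (-5.04, SE 0.82, adjusted p = 0.00341), a call not made in the fit of only the 6 arrays. Other ligands of that receptor were bright at both times: Cxcl1 lay between 13.98 and 14.60 on the 6 arrays and Cxcl2 between 13.14 and 14.20, and neither was called. The 4 rises were ligands of monocytes and T cells. Ccl12, a ligand of Ccr2 in the mouse, rose from 2.45, 5.23 and 3.17 to 8.07, 7.51 and 8.07 (4.27, SE 0.70, adjusted p = 0.00346). Cxcl16, a scavenger receptor and ligand of Cxcr6, rose from 4.20, 5.28 and 4.21 to 6.63, 6.79 and 7.30 (2.34, SE 0.44, adjusted p = 0.00743). These 2 rises held with each array left out. Ccl2, the main monocyte chemoattractant, rose from 6.07, 7.55 and 4.93 to 9.28, 8.61 and 8.61 (2.65, SE 0.65, adjusted p = 0.0316), and Ccl7, a related ligand, from 4.03, 5.85 and 3.22 to 7.25, 7.02 and 7.89 (3.02, SE 0.74, adjusted p = 0.0317). Both lost the call when any array other than 12 h replicate 2 was left out (highest adjusted p = 0.103 and 0.115). After quantile normalization Ccl12 alone of the 4 rises was called, with both falls.

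Of 28 genes of the interleukin-6 family, interleukin-1, TNF and NF-kappaB targets, 5 were called lower (17.9%, against 0.819% of all symbols) and 0 higher, with a median of -0.87 and 24 changes below 0. One of the 5 is Il1r2, given above with the neutrophil markers. After quantile normalization Il6 and Csf1 remained of the 5. Il6 measured 10.34, 10.19 and 10.31 at 12 h and 7.02, 6.82 and 7.77 at 48 h. The 12 h arrays were nearly equal and all above the 48 h arrays, and the fall was 8.42-fold (-3.07, SE 0.54, adjusted p = 0.00549). Osmr, the oncostatin M receptor subunit, fell from 8.20, 8.0 and 8.58 to 3.59, 6.04 and 5.67 (-3.16, SE 0.75, adjusted p = 0.0262). Csf1, the growth factor of macrophages, fell from 8.88, 7.98 and 6.40 to 4.85, 3.67 and 5.15 (-3.20, SE 0.51, adjusted p = 0.00301). Tnfaip6, a hyaluronan-binding protein, went from 7.85, 8.08 and 3.97 to 3.79, 3.40 and 3.25 (-3.15, SE 0.84, adjusted p = 0.0461). Il6 and Csf1 were called with each array left out (but Il6 not with all 18 arrays and Csf1 not with only the 6), Osmr not without any 12 h array or 48 h replicate 1 (highest adjusted p = 0.0904), and Tnfaip6 only in full or without 12 h replicate 3 (highest adjusted p = 0.173). The cytokines that open an inflammatory response were still bright at 48 h: Il1b, interleukin-1 beta, read 13.82, 13.51 and 12.01 and then 11.92, 11.65 and 11.17 (-1.53, SE 1.68, adjusted p = 0.75), and Tnf read 9.81, 8.11 and 7.79 and then 8.77, 8.91 and 8.77 (0.25, SE 0.76, adjusted p = 0.937).

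NF-kappaB is a dimeric transcription factor that binds a short palindromic site. RefSeq promoters (build GRCm38.p6, 250 bases before to 50 after the start) were searched on both strands for the NF-kappaB consensus, and 9.55% of 27025 genes held a match. Of the 79 measured genes of the neutrophil, acute-phase, chemokine and cytokine lists 63 had a promoter and 15 of these a match (23.8%), while of the 11 called lower with a promoter 3 held one (Csf1, Il6 and Steap4). The promoters of the called genes with the smallest adjusted p among these are shown from 5′ to 3′ of the gene with the match in capitals, Csf1 at chr3:107760420-107760719 on the minus strand and Il6 at chr5:30012864-30013163 on the plus strand. A match is a description of the letters and not a site shown to be bound.
Csf1 promoter: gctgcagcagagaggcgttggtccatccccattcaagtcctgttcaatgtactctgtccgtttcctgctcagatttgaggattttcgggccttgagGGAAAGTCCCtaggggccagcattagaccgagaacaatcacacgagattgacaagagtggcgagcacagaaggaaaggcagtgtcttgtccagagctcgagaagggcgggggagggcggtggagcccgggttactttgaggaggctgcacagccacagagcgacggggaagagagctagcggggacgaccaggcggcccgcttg
Il6 promoter: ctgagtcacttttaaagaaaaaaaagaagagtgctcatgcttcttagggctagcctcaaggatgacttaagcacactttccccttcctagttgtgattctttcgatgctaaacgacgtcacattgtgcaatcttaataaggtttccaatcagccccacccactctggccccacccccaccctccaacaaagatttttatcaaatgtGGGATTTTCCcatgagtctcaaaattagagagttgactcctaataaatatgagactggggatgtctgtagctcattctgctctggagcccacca

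**Figure D3:**
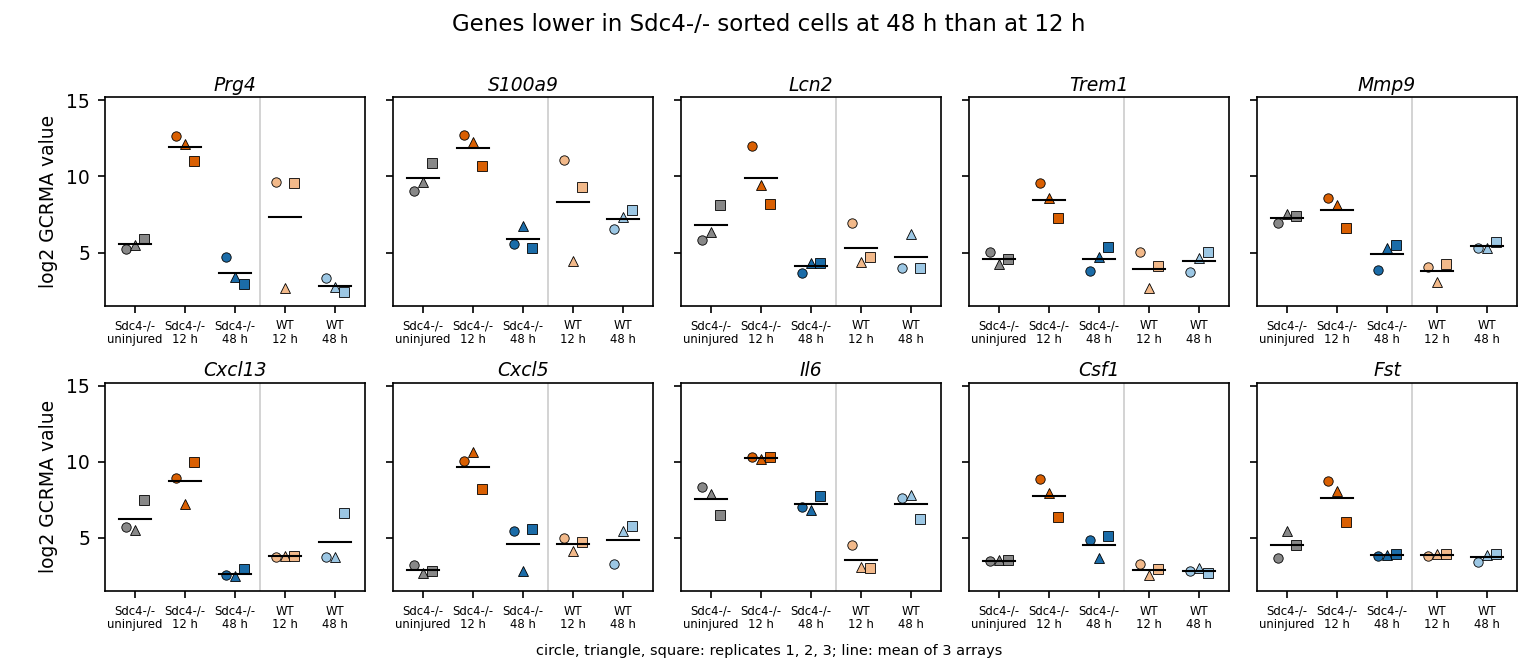
Log2 GCRMA values of 10 genes called lower at 48 h, in the 3 arrays of each group (circle, triangle and square for replicates 1, 2 and 3; line, mean of 3 arrays), with Sdc4-/- cells left of the grey line and WT cells right of it. For each gene the 3 Sdc4-/- 12 h arrays lie above the 3 Sdc4-/- 48 h arrays, with the widest gap in Prg4.

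Calls among signalling and immediate early genes went in both directions. Fst, follistatin, which binds activins and myostatin, measured 8.71, 8.06 and 6.04 at 12 h and 3.79, 3.90 and 3.93 at 48 h, with every 48 h array below every 12 h array (-3.73, SE 0.56, adjusted p = 0.00221), although it was not called in the fit of only the 6 arrays. Inhba, the activin A subunit, fell from 8.37, 9.31 and 8.27 to 6.56, 5.0 and 7.63 (-2.26, SE 0.56, adjusted p = 0.0345), a call lost without any 12 h array or 48 h replicate 1 or 2 (highest adjusted p = 0.115). Smad2, a mediator of these ligands, rose from 4.04, 4.29 and 4.55 to 4.85, 5.55 and 6.44 (1.32, SE 0.34, adjusted p = 0.0407), a call kept only without 48 h replicate 1 (highest adjusted p = 0.141). They were the 3 calls among 32 TGF-beta, BMP and Wnt genes (6.25% lower, 3.12% higher, median -0.15). Of the 12 with a mean of at least 4, 1 was higher and 2 lower, beside 17.8% and 1.08% of all such symbols. Among 20 immediate early genes 1 was lower (5%) and 2 higher (10%), with a median of 0.30. All of these calls fell among the 19 with a mean of at least 4, where the share of rises was under the 17.8% of all such symbols. Egr3, a zinc finger factor induced by receptor signalling, fell from 9.87, 9.72 and 9.11 to 6.82, 6.23 and 6.37 (-3.09, SE 0.51, adjusted p = 0.00362). Zfp36, the gene of tristetraprolin, which destabilizes mRNAs with AU-rich elements such as that of Il6 and Tnf, rose from 8.10, 8.10 and 7.78 to 9.48, 9.46 and 9.05 (1.34, SE 0.19, adjusted p = 0.00158). Both held with each array left out, but Zfp36 was not called after quantile normalization. Fosb, an AP-1 subunit, rose from 3.19, 4.88 and 5.96 to 6.78, 7.22 and 6.53 (2.17, SE 0.53, adjusted p = 0.0299) and was called only in full or without 12 h replicate 3 (highest adjusted p = 0.112).

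The 15 largest rises, chosen with no overlap and a mean of at least 6 at 48 h, included membrane proteins, lysosomal enzymes and enzymes of mitochondria. Hadh, a mitochondrial enzyme of fatty acid oxidation, measured 2.75, 7.84 and 2.80 at 12 h and 10.48, 11.12 and 9.81 at 48 h. Its 12 h replicate 2 stood apart from the other 12 h arrays yet below every 48 h array, and the others lay at background (6.01, SE 1.04, adjusted p = 0.00487). Its uninjured mean was 11.33, so the 12 h level was the low one. Ms4a7, a membrane protein of macrophages, rose from 2.53, 3.90 and 2.41 to 8.82, 8.67 and 8.57 (5.74, SE 0.75, adjusted p = 0.001), Itgb5, the integrin beta5 subunit, from 3.28, 3.92 and 4.00 to 8.90, 9.11 and 8.29 (5.04, SE 0.93, adjusted p = 0.00698), and Bscl2, the lipid droplet protein seipin, from 3.66, 5.48 and 2.67 to 8.79, 9.07 and 8.94 (5.0, SE 0.58, adjusted p = 0.000515). All 3 were brighter on every 48 h array than on any 12 h array, as the choice required. Ptpro, a receptor tyrosine phosphatase, rose from 3.10, 3.51 and 2.90 to 7.83, 7.48 and 7.73 (4.51, SE 0.46, adjusted p = 0.000257), and Lhfpl2, a tetraspan membrane protein, from 6.55, 6.79 and 4.92 to 10.33, 10.81 and 10.45 (4.44, SE 0.75, adjusted p = 0.00407). The remaining genes of the 15 largest rises, Gusb, Wwp1, Fcgr1, Otulinl, Rnase4, Dck, Rgs10, Tmem126a and Ctso, rose by 4.48 to 4.76. All 15 calls held with each array left out, and after quantile normalization 13 remained, all but Wwp1 and Otulinl. In the fit of only the 6 arrays Hadh, Wwp1, Dck and Tmem126a were not called, and with a hybridization-control covariate Otulinl was not.

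Of 27 monocyte and macrophage markers 7 were called higher and 0 lower (25.9%, against 7.61% of all symbols), with a median of 1.34. All 7 were among the 25 with a mean of at least 4, where 17.8% of all symbols were called higher. The list was already bright in uninjured Sdc4-/- cells, with a mean level of 8.42 to 9.09. Gpnmb, a lysosomal and membrane glycoprotein of phagocytes, measured 4.61, 4.62 and 4.65 at 12 h and 9.33, 9.18 and 8.41 at 48 h. It was flat at 12 h, as in uninjured cells (mean 4.05), and 20.3-fold higher at 48 h (4.35, SE 0.32, adjusted p = 2.63e-05). Fcgr1, the high-affinity IgG receptor, rose from 2.49, 4.71 and 4.11 to 8.49, 8.66 and 8.15 (4.66, SE 0.59, adjusted p = 0.000891), above its uninjured mean of 4.71. Fcer1g, the signalling chain of Fc receptors, rose from 6.19, 6.29 and 5.64 to 8.54, 8.72 and 8.61 (2.58, SE 0.54, adjusted p = 0.0132). Cd68, a lysosomal marker of macrophages, rose from 6.44, 7.69 and 6.38 to 10.22, 10.27 and 10.30 (3.42, SE 0.68, adjusted p = 0.0109), and Ccr2, the chemokine receptor of inflammatory monocytes, from 3.09, 3.71 and 3.32 to 6.74, 6.18 and 6.16 (2.99, SE 0.52, adjusted p = 0.00517). In all 5 the 12 h and 48 h arrays did not overlap, and all 5 calls held with each array left out. Adgre1, a surface receptor that marks mouse macrophages, rose from 6.85, 7.28 and 4.96 to 9.53, 9.47 and 9.20 (3.04, SE 0.78, adjusted p = 0.0391), and Msr1, a scavenger receptor, from 7.90, 8.63 and 9.44 to 11.15, 10.99 and 10.85 (2.34, SE 0.62, adjusted p = 0.047). Those 2 were lost when any array other than 12 h replicate 2 (Adgre1) or 12 h replicate 3 (Msr1) was left out (highest adjusted p = 0.129 and 0.172). Other markers of resident macrophages overlapped or were not called, with Mrc1, the mannose receptor, at 7.83, 10.83 and 11.61 and then 11.07, 11.28 and 11.94 (adjusted p = 0.612) and Cd163, the haemoglobin scavenger receptor, at 8.19, 11.28 and 12.03 and then 9.76, 10.15 and 11.07 (adjusted p = 0.968). After quantile normalization 4 of the 7 remained, and of the 4 that are bright enough to be centred on bright probe sets 0 remained by limma.

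Lysosomal genes were the list with the largest share of calls, 13 of 20 higher (65%) and 0 lower, with a median of 2.36 and all 20 changes above 0. All 13 were among the 19 with a mean of at least 4 (17.8% of all such symbols). Gusb, beta-glucuronidase, measured 3.85, 5.98 and 3.53 at 12 h and 9.37, 9.23 and 9.05 at 48 h (4.76, SE 0.55, adjusted p = 0.00052). Lgmn, the asparaginyl protease legumain, went from 3.64, 6.24 and 4.65 to 9.13, 8.62 and 9.09 (4.10, SE 0.63, adjusted p = 0.00242). Psap, the precursor of the saposins that help break down sphingolipids, was bright at both times, at 8.90, 9.75 and 9.14 and then 12.18, 12.19 and 11.72 (2.77, SE 0.33, adjusted p = 0.000623). Each of the 3 had its 12 h and 48 h arrays apart and was called also after quantile normalization and after centring on bright probe sets. Atp6v1a and Atp6v0d1, subunits of the proton pump that acidifies lysosomes, rose from 8.52, 7.92 and 8.12 to 10.45, 10.69 and 10.57 (2.38, SE 0.22, adjusted p = 0.000146) and from 7.11, 7.11 and 6.67 to 8.10, 8.30 and 8.23 (1.25, SE 0.20, adjusted p = 0.00269). Lamp1, a membrane protein of lysosomes, rose from 9.96, 10.34 and 10.40 to 12.10, 12.11 and 12.00 (1.83, SE 0.32, adjusted p = 0.00483). With single arrays left out the list held 9 to 10 called rises. After quantile normalization 5 of the 13 remained, and after centring on bright probe sets 3 of 12. The list's mean level was 8.70 to 9.35 in uninjured Sdc4-/- cells, 8.03 to 8.61 at 12 h and 10.39 to 10.62 at 48 h. The 12 h level was thus the lowest and the 48 h level the highest. The macrophage marker level of 7.68 to 8.57 at 12 h and 9.58 to 9.66 at 48 h moved with this list, and its part was not tested.

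Genes of lysosomes often share an E-box bound by TFEB and related factors, whose core is TCACGTG. Matches on either strand were present in the promoters of 1160 of 27025 genes (4.29%), of 8 of 19 lysosomal genes with a promoter (42.1%) and of 7 of the 12 called ones. Those of Atp6v1a and Lgmn, the called genes with the smallest adjusted p among these, are shown to place the match, at chr16:44139210-44139509 and chr12:102439043-102439342, both on the minus strand (GRCm38.p6). The match is in capitals, and in Atp6v1a it reads as a match on both strands over 8 bases. The windows of Psap and Gusb, which also rose, do not hold these letters.
Atp6v1a promoter: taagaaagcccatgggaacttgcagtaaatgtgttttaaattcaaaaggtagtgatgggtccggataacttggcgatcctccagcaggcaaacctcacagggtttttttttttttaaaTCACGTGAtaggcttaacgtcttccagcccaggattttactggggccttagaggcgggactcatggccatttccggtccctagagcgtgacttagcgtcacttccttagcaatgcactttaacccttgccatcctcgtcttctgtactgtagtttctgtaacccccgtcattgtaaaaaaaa
Lgmn promoter: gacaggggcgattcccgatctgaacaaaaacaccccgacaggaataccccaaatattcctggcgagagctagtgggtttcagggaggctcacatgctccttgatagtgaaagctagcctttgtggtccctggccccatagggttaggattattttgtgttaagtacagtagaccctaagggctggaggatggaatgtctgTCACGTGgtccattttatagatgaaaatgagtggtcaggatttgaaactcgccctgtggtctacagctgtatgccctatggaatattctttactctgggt

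**Figure D4:**
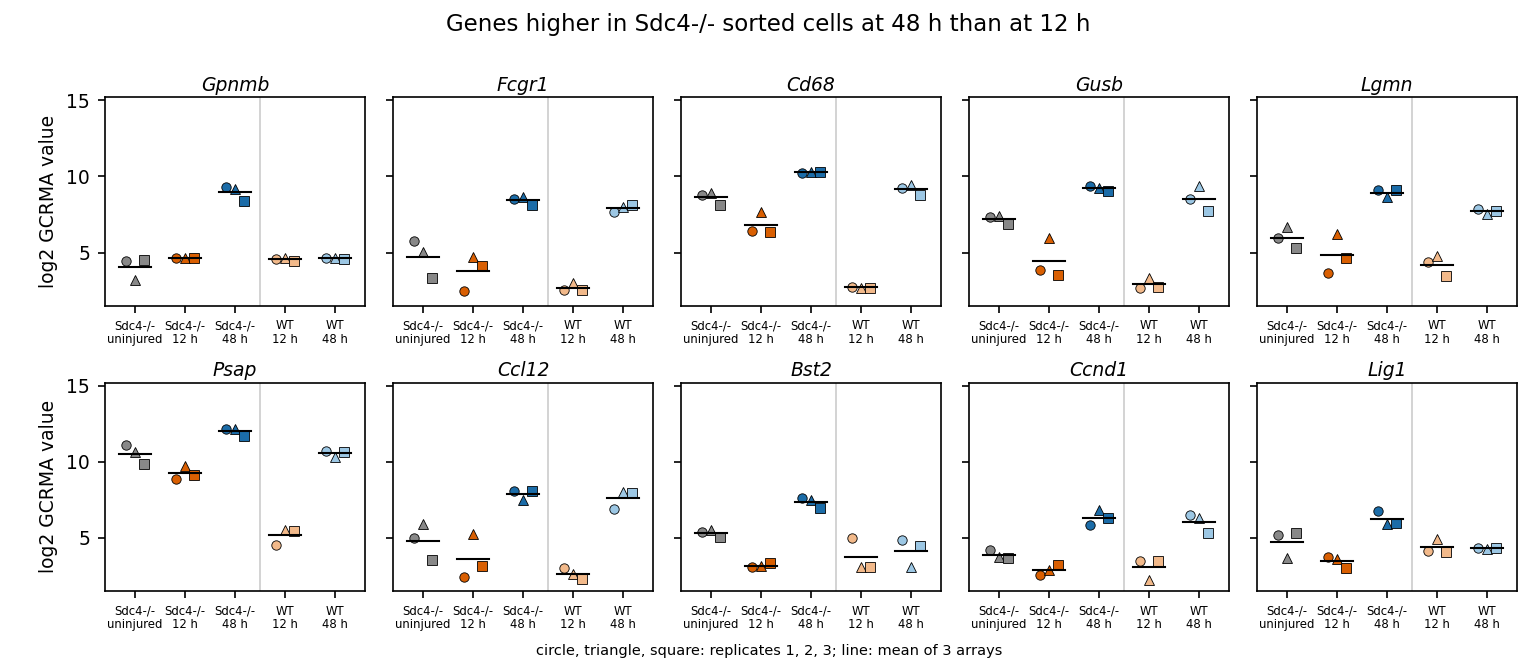
Log2 GCRMA values of 10 genes called higher at 48 h, in the 3 arrays of each group (circle, triangle and square for replicates 1, 2 and 3; line, mean of 3 arrays), with Sdc4-/- cells left of the grey line and WT cells right of it. For each gene the 3 Sdc4-/- 48 h arrays lie above the 3 Sdc4-/- 12 h arrays, and Gpnmb, Bst2 and Lig1 have WT 48 h means within 0.40 of the WT 12 h means.

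Interferon-stimulated genes were higher in 7 of 21 measured members (33.3%) and lower in 0, with a median of 1.06. Bst2, tetherin, which holds budding virions at the cell surface, rose from 3.05, 3.12 and 3.33 to 7.65, 7.46 and 6.94 (4.18, SE 0.51, adjusted p = 0.000677). Usp18, a negative regulator of interferon signalling, rose from 3.28, 2.72 and 2.74 to 6.35, 6.85 and 6.23 (3.57, SE 0.51, adjusted p = 0.0017), and Ifit2, an antiviral tetratricopeptide protein, from 4.49, 4.06 and 4.16 to 7.98, 6.81 and 6.03 (2.71, SE 0.47, adjusted p = 0.00517). All 3 were called with each array left out, and Bst2 and Usp18 lay near background on the 12 h arrays. After quantile normalization Bst2, Usp18 and Oasl2 remained of the 7. Ifit2 was called neither there nor in the fit of only the 6 arrays. Among the 16 members of the list averaging at least 4, 4 were called, beside 17.8% of all such symbols. Irf7 (1.65), Tap1 (1.63), Oasl2 (1.57) and Mx1 (2.16) each lost the call with at least 3 of the 6 arrays left out singly (highest adjusted p = 0.0636 to 0.125). Members that were already bright did not pass the test, such as Rsad2, viperin, at 10.90, 9.22 and 10.68 and then 11.66, 10.73 and 10.59 (0.72, SE 1.13, adjusted p = 0.849).

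Genes of MHC class II antigen presentation split, with 1 of 9 lower (11.1%), 1 higher (11.1%) and a median of -0.03, beside 0.819% of all symbols lower and 7.61% higher. Cd74, the invariant chain, fell from 7.35, 7.52 and 7.81 to 4.72, 5.19 and 5.58 (-2.40, SE 0.59, adjusted p = 0.0318), below its uninjured mean of 9.95. H2-Aa, a class II chain, read 11.56, 12.16 and 10.59 and then 9.22, 9.71 and 9.54 (-1.94, SE 0.90, adjusted p = 0.287), and H2-Ab1, its partner, read 7.28, 8.35 and 7.83 and then 5.21, 5.89 and 5.84 (-2.17, SE 0.80, adjusted p = 0.157). Neither overlapped between the times. Ifi30, a lysosomal thiol reductase, rose from 5.81, 7.60 and 5.63 to 8.70, 8.84 and 8.46 (2.32, SE 0.49, adjusted p = 0.0155). Cd74 was not called with any array left out (highest adjusted p = 0.106), and Ifi30 not without 12 h replicate 1 or 3 or 48 h replicate 2 (highest adjusted p = 0.0674).

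Genes of energy metabolism and protein handling rose in large shares. In oxidative phosphorylation 11 of 23 genes were higher (47.8%), 0 lower and all 23 changes above 0, with a median of 1.91. Ndufa9, a complex I subunit, rose from 3.67, 5.04 and 3.62 to 7.49, 7.70 and 7.48 (3.45, SE 0.53, adjusted p = 0.0023), and Atp5c1, the gamma subunit of ATP synthase, from 8.44, 9.28 and 8.63 to 11.14, 11.53 and 10.88 (2.40, SE 0.33, adjusted p = 0.00135). They were the 2 that remained after quantile normalization, and 6 of the 11 held with each array left out. Of the 4 that are bright, Atp5c1 among them, 0 remained by limma after centring on bright probe sets. All 23 members have a mean of at least 4, where 17.8% of all symbols were called higher. In glycolysis 4 of 16 were higher (25%), with a median of 0.41, and all 4 were among the 14 with a mean of at least 4. Tpi1, triose phosphate isomerase, rose from 4.68, 7.02 and 5.17 to 9.32, 9.39 and 9.08 (3.64, SE 0.62, adjusted p = 0.00461), and Pdk1, the kinase that turns off pyruvate dehydrogenase, from 2.71, 5.41 and 3.69 to 6.92, 8.37 and 7.42 (3.63, SE 0.62, adjusted p = 0.00463). Tpi1 and Pdk1 were called with each array left out and after centring on bright probe sets, but not in the fit of only the 6 arrays. After quantile normalization Pdk1 alone of the 4 remained. Pgam1 (2.47) lost its call with any array left out, and Ldha (1.65) with 5 of the 6 (highest adjusted p = 0.0946 and 0.107). Slc2a1, the glucose transporter, was not called, at 10.54 to 11.30 and then 10.16 to 10.37 (-0.52, SE 1.41, adjusted p = 0.925). Sqle, squalene epoxidase, at 1.98 (adjusted p = 0.0259, lost with 5 of the 6 arrays left out singly, highest adjusted p = 0.1), was the 1 call among 19 cholesterol and fatty acid synthesis genes (5.26%, against 7.61% of all symbols, median 0.56).

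Proteasome subunits were higher in 10 of 22 (45.5%) and lower in 0, with a median of 1.66 and all 22 changes above 0. All 10 were among the 21 with a mean of at least 4 (17.8% of all such symbols). Psmb1, a core particle subunit, rose from 5.65, 6.95 and 6.32 to 8.87, 9.47 and 9.12 (2.84, SE 0.31, adjusted p = 0.000374), and Psmb6, a catalytic subunit, from 5.79, 7.26 and 5.30 to 9.34, 9.56 and 9.13 (3.23, SE 0.55, adjusted p = 0.00463). These 2 alone of the 10 remained after quantile normalization and after centring on bright probe sets. Endoplasmic reticulum folding genes were higher in 8 of 22 (36.4%), with a median of 1.09, and 7 of the 20 with a mean of at least 4 were called (17.8% of all such symbols). Pdia3, a disulfide isomerase, rose from 4.02, 4.69 and 3.88 to 6.71, 7.18 and 7.24 (2.84, SE 0.32, adjusted p = 0.000399), and Ssr1, a translocon-associated protein, from 5.75, 6.68 and 6.71 to 8.49, 8.51 and 8.41 (2.09, SE 0.24, adjusted p = 0.00052). Of the 8 rises 4 held with each array left out, 2 (Pdia3 and Ssr1) remained after quantile normalization and, of the 6 that are bright, 0 remained by limma after centring on bright probe sets. Hspa5, the chaperone BiP, was bright throughout, at 12.58, 12.13 and 13.55 and then 13.19, 13.14 and 13.56 (0.54, SE 0.64, adjusted p = 0.774). None of 19 heat shock chaperones was called by limma (median 0.40), nor any of 15 cytosolic ribosomal proteins (median 0.97), and 1 of 20 ribosome biogenesis genes was higher (5%, against 7.61% of all symbols, median 0.23). Array brightness moved with all of these lists, and its part was not tested.

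Of 31 DNA replication genes 7 were higher (22.6%) and 0 lower, with a median of 1.46 and 9 changes below 0. All 7 were among the 17 with a mean of at least 4, whose median was 2.54 (17.8% of all such symbols were called higher). Lig1, the ligase of lagging strand synthesis, measured 3.73, 3.63 and 3.03 at 12 h and 6.74, 5.94 and 5.97 at 48 h (2.75, SE 0.43, adjusted p = 0.00288). Rrm1, the large subunit of ribonucleotide reductase, rose from 3.53, 4.66 and 2.92 to 6.95, 6.79 and 5.75 (2.79, SE 0.46, adjusted p = 0.00361), and Mcm3, a subunit of the replicative helicase, from 4.41, 4.17 and 3.68 to 6.49, 6.40 and 5.93 (2.19, SE 0.40, adjusted p = 0.00663). In all 3 the highest 12 h array was below the lowest 48 h array, and these 3 calls held with each array left out, but 0 of the 7 were called by limma after quantile normalization. Rfc4, a clamp loader subunit, rose by 3.50 (adjusted p = 0.0145), Gins2, a helicase cofactor, by 1.65 (adjusted p = 0.0244), Mcm2 by 1.69 (adjusted p = 0.0255) and Pold1, a polymerase delta subunit, by 2.54 (adjusted p = 0.0456). Rfc4 lost its call without 48 h replicate 2 (highest adjusted p = 0.0627), Gins2 and Mcm2 without that array or any 12 h array (0.073 and 0.0993), and Pold1 without any array but 48 h replicate 3 (0.171). Pcna, the sliding clamp, read 8.29, 8.47 and 9.23 and then 9.95, 10.45 and 9.98 without overlap or a call (1.46, SE 0.62, adjusted p = 0.237).

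Genes of replication are common targets of E2F factors, searched here as TTTNNCGC on both strands. The letters were present in the promoters of 1602 of 27025 genes (5.93%), of 13 of 27 replication genes with a promoter (48.1%) and of 3 of the 6 called ones. The promoters of Lig1, at chr7:13278576-13278875 on the plus strand, and Mcm3, at chr1:20820263-20820562 on the minus strand (GRCm38.p6), are shown with the matches in capitals, 1 in Lig1 and 2 in Mcm3 that do not overlap. All of them lie within the 50 bases after the start.
Lig1 promoter: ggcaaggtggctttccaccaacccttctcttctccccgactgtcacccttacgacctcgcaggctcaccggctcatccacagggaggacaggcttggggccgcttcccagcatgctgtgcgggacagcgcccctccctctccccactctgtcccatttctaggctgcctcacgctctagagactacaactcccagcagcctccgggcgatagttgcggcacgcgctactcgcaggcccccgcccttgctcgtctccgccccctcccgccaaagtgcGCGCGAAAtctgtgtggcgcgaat
Mcm3 promoter: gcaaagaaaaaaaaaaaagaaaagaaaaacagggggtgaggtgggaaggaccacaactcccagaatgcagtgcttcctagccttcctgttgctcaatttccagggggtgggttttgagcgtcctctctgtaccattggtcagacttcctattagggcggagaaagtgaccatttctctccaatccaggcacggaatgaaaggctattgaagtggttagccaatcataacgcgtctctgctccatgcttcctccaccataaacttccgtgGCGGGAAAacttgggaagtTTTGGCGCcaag

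Of the genes that drive entry into S phase, 3 of 16 G1 cyclins and E2F factors were higher (18.8%, against 7.61% of all symbols), with a median of 0.12. Of the 6 with a mean of at least 4, 2 were higher, beside 17.8% of all such symbols. Ccnd1, cyclin D1, was at background at 12 h, with 2.57, 2.87 and 3.22, and at 5.82, 6.83 and 6.30 at 48 h (3.43, SE 0.42, adjusted p = 0.000702). E2f8, a repressor of the family, rose from 2.45, 2.48 and 2.50 to 4.82, 4.85 and 3.68 (1.97, SE 0.35, adjusted p = 0.00597). E2f1 rose by only 0.43, from 3.88 to 3.92 up to 4.29 to 4.39, and was lost with any array left out (highest adjusted p = 0.149). Of 37 mitosis genes 3 were higher (8.11%) with a median of 0.00, a share near that of all symbols. Birc5, survivin, went from 2.66, 2.66 and 2.68 to 3.74, 3.66 and 3.25 (0.88, SE 0.11, adjusted p = 0.000634), Cdca8, borealin, from 3.30, 3.84 and 5.50 to 8.79, 8.54 and 7.15 (3.94, SE 0.69, adjusted p = 0.00533), and Smc2, a condensin subunit, from 4.01, 3.99 and 3.68 to 4.89, 6.03 and 5.08 (1.44, SE 0.36, adjusted p = 0.0347). Birc5 and Cdca8, both of the chromosomal passenger complex, held with each array left out, while Smc2 kept its call only where the array left out was 48 h replicate 1 (highest adjusted p = 0.136). Mki67, the Ki-67 antigen of cycling cells, measured 9.50, 7.22 and 8.86 at 12 h and 7.77, 7.08 and 6.65 at 48 h, with overlap (-1.36, SE 0.65, adjusted p = 0.309).

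CDK inhibitors and pocket proteins gave 2 of 16 higher (12.5%) and 1 lower (6.25%), with a median of -0.09. Of the 11 with a mean of at least 4, 2 were higher and 0 lower, a share of rises near the 17.8% of all such symbols. Rb1, the retinoblastoma protein, rose from 3.89, 5.10 and 5.59 to 7.49, 7.53 and 6.99 (2.48, SE 0.55, adjusted p = 0.0192), and Rbl1, its relative p107, from 2.91, 2.75 and 2.59 to 6.54, 5.75 and 5.61 (3.21, SE 0.70, adjusted p = 0.0166). Gadd45a, a growth arrest and DNA damage gene, fell from 5.69, 5.88 and 4.10 to 3.66, 3.06 and 3.90 (-1.68, SE 0.44, adjusted p = 0.0424). None of the 3 calls held with every array left out: Rbl1 lost it without 48 h replicate 1, Rb1 without that array, 48 h replicate 2 or 12 h replicate 1, and Gadd45a without any array but 12 h replicate 3 (highest adjusted p = 0.0612, 0.0803 and 0.162). Cdkn1a, the inhibitor p21, was bright, at 9.36, 9.09 and 9.68 and then 10.12, 10.17 and 10.30, and was not called (0.82, SE 0.87, adjusted p = 0.736).

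Of 24 genes of myogenic commitment and differentiation 1 was called (4.17%, against 7.61% of all symbols called higher), with a median of -0.10 and 17 of the 24 under 4 at both times. It was Mef2c, a transcription factor of muscle and of myeloid cells, which rose from 3.13, 2.95 and 5.15 to 6.26, 6.87 and 6.25 (2.72, SE 0.48, adjusted p = 0.00563), to a level under its uninjured mean of 7.51. Myog, myogenin, lay between 2.58 and 2.88. Of the post-transcriptional regulators, splicing factors were called less often than all symbols of like brightness, and mRNA stability regulators about as often. Of 23 mRNA stability regulators 3 were higher (13%, median 0.50), Zfp36 as above, Dcp2, the decapping enzyme, from 3.86, 4.54 and 3.30 to 6.46, 7.30 and 6.35 (2.81, SE 0.58, adjusted p = 0.0129) and Cnot7, a deadenylase, from 5.44, 5.86 and 5.35 to 6.78, 7.57 and 6.92 (1.54, SE 0.33, adjusted p = 0.0164). These 3 were among the 16 of that list with a mean of at least 4, where 17.8% of all symbols were called higher. Of 28 splicing factors 2 were higher (7.14%, median 0.60), Snrpa1, a protein of the U2 particle (1.62, adjusted p = 0.00826), and Ptbp1, which represses exons (2.00, adjusted p = 0.0181). All 28 have a mean of at least 4. Dcp2 lost its call without 48 h replicate 2, Cnot7 without that array or 12 h replicate 1 or 3, and Ptbp1 without 12 h replicate 1 or 48 h replicate 2 or 3 (highest adjusted p = 0.0582, 0.0721 and 0.0755). Mef2c and Snrpa1 held with each array left out, but neither was called in the fit of only the 6 arrays. Snrpa1 was also not called with all 18 arrays or after centring on bright probe sets. After quantile normalization 0 of the calls in these 3 lists remained by limma.

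None of 18 collagens (median -0.59), 25 provisional and elastic matrix genes (-0.15), 12 small leucine-rich proteoglycans (-0.19) or 15 laminins and basement membrane genes (-0.16) was called by limma, and several differed more within a time than between times, as Col1a2 of type I collagen, at 6.70, 7.54 and 5.54 and then 8.64, 5.75 and 3.75. Fn1, fibronectin, read 9.46, 10.64 and 8.82 and then 10.68, 10.73 and 11.32, just without overlap (1.27, SE 0.61, adjusted p = 0.312). Collagen processing genes were higher in 2 of 16 (12.5%, median -0.23), Plod3, a lysyl hydroxylase, by 1.56 (adjusted p = 0.0123) and P4ha1, a prolyl hydroxylase, by 1.34 (adjusted p = 0.0271). Metalloproteinases and inhibitors held 2 of 22 higher (9.09%) and Mmp9 lower (4.55%), with a median of -0.24, the rises being Adam8, of myeloid cells, by 1.82 (adjusted p = 0.0375) and Mmp14, a membrane type enzyme, by 0.86 (adjusted p = 0.0438). Actin and adhesion genes were higher in 2 of 25 (8%, median 0.72), Pfn1, profilin, by 1.67 (adjusted p = 0.00555) and Flna, filamin A, by 1.39 (adjusted p = 0.027). Over all symbols 7.61% were called higher and 0.819% lower. Among members with a mean of at least 4, 1 of 7 collagen processing genes and 2 of 12 metalloproteinases and inhibitors were higher. The same held for 1 of 22 actin and adhesion genes, beside 17.8% of all such symbols. Of the 6 called rises, Plod3 and Pfn1 were called with each array left out, and the others lost it with 3 to 6 of the arrays (highest adjusted p = 0.0881 to 0.131).

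Among 22 syndecans, glypicans and heparan sulfate enzymes 2 were higher (9.09%, against 7.61% of all symbols, median 0.15). Both were among the 10 with a mean of at least 4, where 17.8% of all symbols were called higher. Sulf2, an extracellular sulfatase that trims heparan sulfate, rose from 3.34, 5.77 and 4.54 to 8.69, 9.10 and 8.85 (4.33, SE 0.99, adjusted p = 0.022), near its uninjured mean of 10.13. Hs2st1, a heparan sulfate sulfotransferase, rose from 3.34, 4.90 and 4.46 to 7.52, 8.14 and 7.18 (3.38, SE 0.89, adjusted p = 0.0434). Their groups did not overlap, but Hs2st1 was not called with any array left out and Sulf2 only without 12 h replicate 2 (highest adjusted p = 0.157 and 0.0945).

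**Figure D5:**
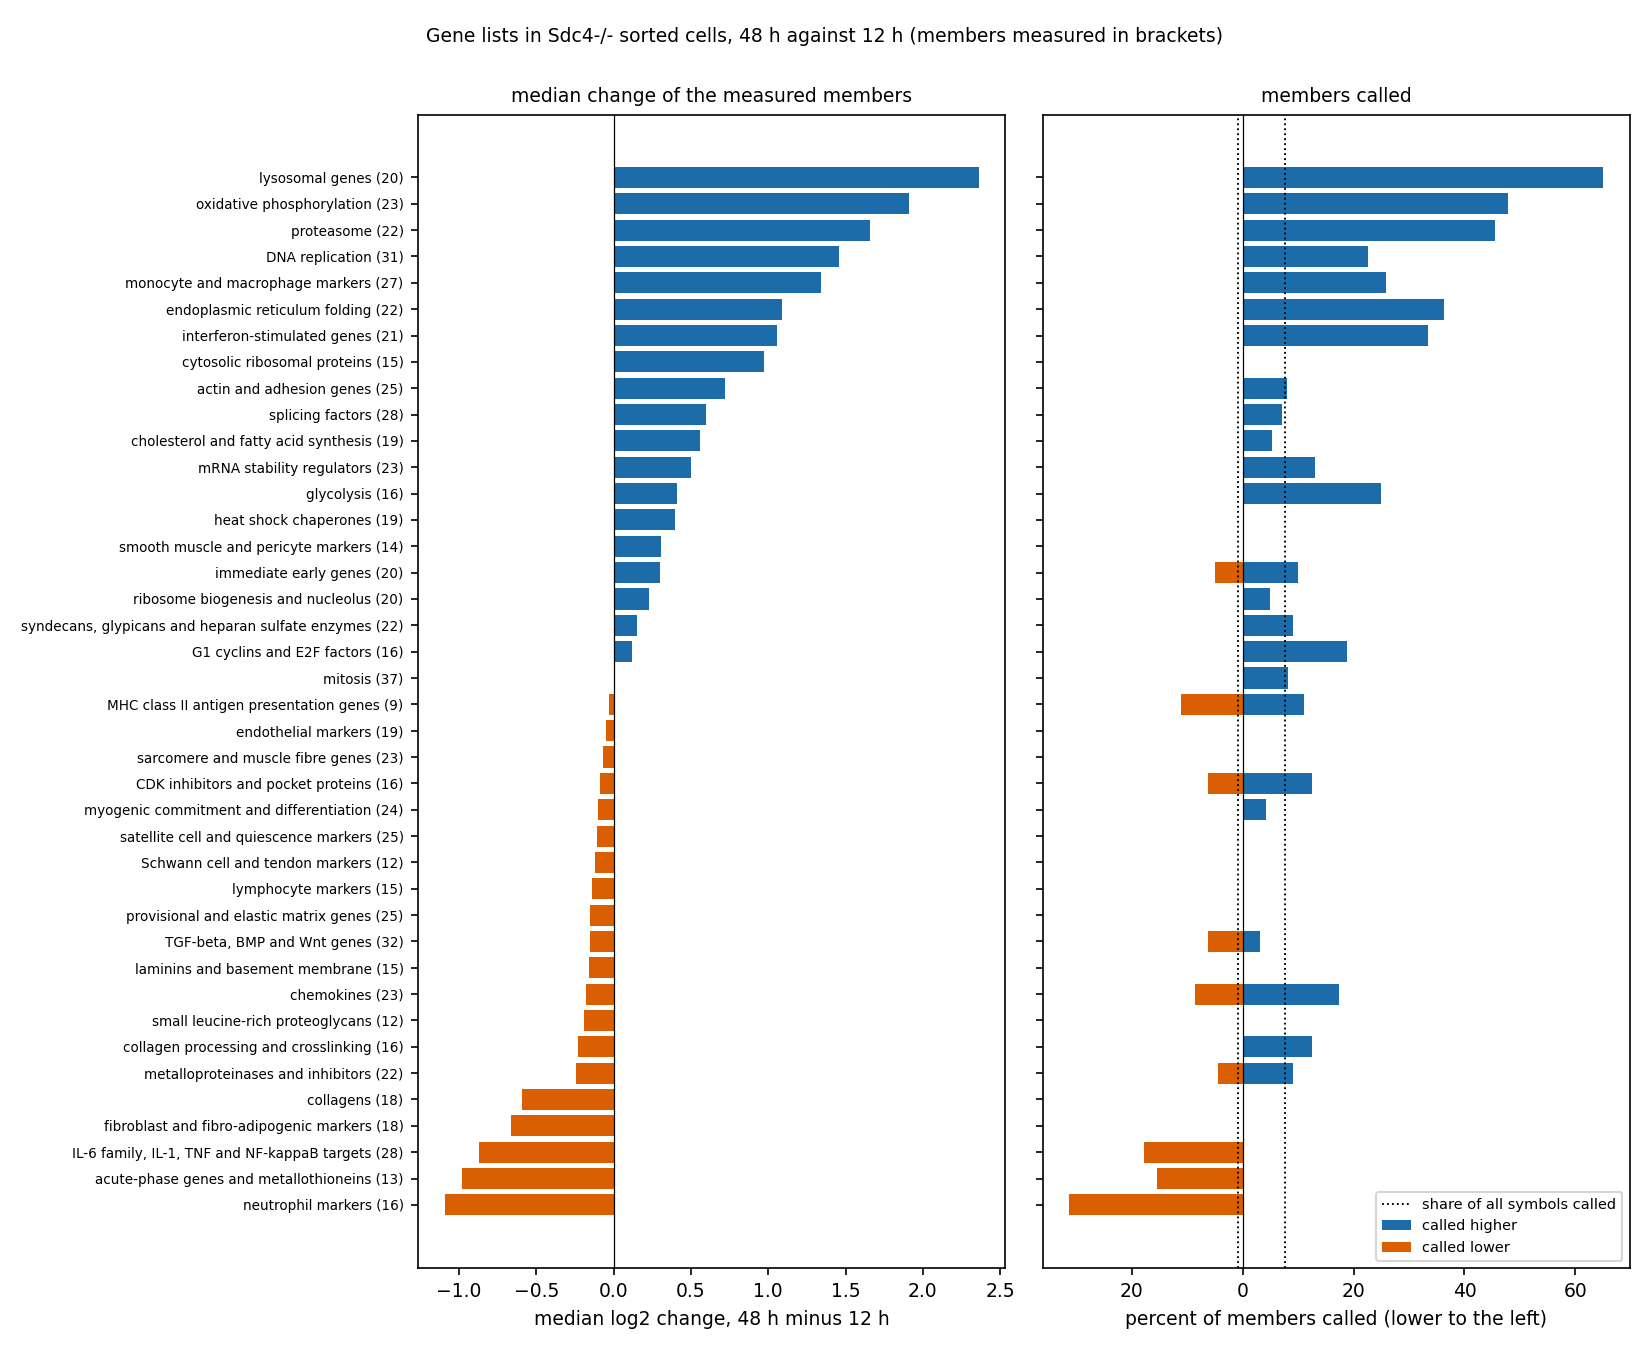
Median log2 change from 12 h to 48 h (left) and percent of members called (right; blue, higher; orange, lower) for 40 gene lists in Sdc4-/- sorted cells, with the number of measured members in brackets and dotted lines at the shares of all symbols called, 7.61% higher and 0.819% lower. Lysosomal genes have the highest median and share, and neutrophil markers the lowest median.

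The change from 12 h to 48 h was also set against that of WT sorted cells. In WT, 2591 probe sets were higher (5.74%) and 2986 lower (6.62%), or 1686 (9.27%) and 1074 (5.9%) symbols. The difference between the changes was called for 1006 probe sets (2.23%), 427 more positive in Sdc4-/- (0.947%) and 579 more negative (1.28%), and for 559 symbols (3.07%), 177 more positive (0.973%) and 382 more negative (2.1%). The WT 12 h arrays were the dimmest of the series, with 2832 to 3982 probe sets above 5, hybridization controls at 13.54 to 14.30 and a mean Csf1r of 2.95 against 12.69 at WT 48 h. These values moved with the genotype differences, and their part in them was not tested. Without WT 12 h replicate 1 the count was 2183.

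Of the genes more positive in Sdc4-/- cells, Gpnmb had WT means of 4.56 at 12 h and 4.62 at 48 h, so that it rose in Sdc4-/- cells and lay at the 12 h level in WT cells at both times (difference 4.28, adjusted p = 0.000387). It was the 1 of 27 monocyte and macrophage markers more positive in Sdc4-/- cells, while 5 were more negative (0.973% and 2.1% of all symbols). In WT cells 21 of the 27 were called higher at 48 h. Of 20 lysosomal genes 0 were more positive and 8 more negative. Ptpro had WT means of 3.43 and 3.56 (difference 4.38, adjusted p = 0.0038). Hccs, which attaches haem to cytochrome c, measured 2.86, 2.87 and 2.88 at 12 h and 5.49, 5.57 and 5.24 at 48 h in Sdc4-/- cells and had WT means of 2.93 and 2.90 (difference 2.60, adjusted p = 7.25e-06). Its adjusted p was the smallest of the differences in this direction. Ccdc90b went from 3.00, 2.99 and 3.01 to 7.73, 6.63 and 7.03, with WT means of 3.42 and 2.94 (difference 4.61, adjusted p = 0.000179), and Rabl3, Htr2b, a serotonin receptor, and Carmil1, a regulator of actin capping, had smaller differences of 1.64, 1.57 and 2.01. Bst2 (3.79), Ifit2 (2.88), Ctso (2.81), Lig1 (2.80) and Birc5 (0.86) differed in the same direction, each with WT means within 1.68 of each other. Of these, Ctso was called in 6, Ifit2 in 5 and Lig1 in 5 of 17 alternatives (highest adjusted p = 0.486, 0.236 and 0.186). Lig1 was lost without any Sdc4-/- 12 h or 48 h array, Ifit2 without any of them but 48 h replicate 3, Ctso without 12 h replicate 1 or 3 or 48 h replicate 1 or 2, and all 3 without WT 12 h replicate 2. Bst2 was not called after quantile normalization, nor Birc5 after a 75th percentile shift.

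Some of the named genes more negative in Sdc4-/- cells fell there from a 12 h level that WT cells did not have. Cxcl13 had WT means of 3.78 and 4.70 (difference -7.00, adjusted p = 0.00833), Serpinb2 of 3.53 and 6.64 (-7.28, adjusted p = 0.012), Il6 of 3.54 and 7.23 (-6.76, adjusted p = 0.000593), Csf1 of 2.91 and 2.84 (-3.13, adjusted p = 0.0445) and Fst of 3.89 and 3.75 (-3.60, adjusted p = 0.0366). Il6 thus fell in Sdc4-/- cells to 7.20 and rose in WT cells to about the same level. The differences of Csf1 and Fst were called in 8 and 7 of 17 alternatives (highest adjusted p = 0.102 and 0.153), and both were lost without 12 h replicate 1 or 2 or 48 h replicate 1 or 2 of the Sdc4-/- arrays, Fst also without 48 h replicate 3, and both without WT 12 h replicate 2 or 3. Other named genes were already higher at 12 h in Sdc4-/- than in WT cells and rose there less. Washc5, a subunit of the WASH complex, measured 8.52, 8.49 and 7.95 at 12 h and 10.74, 10.81 and 10.96 at 48 h in Sdc4-/- cells and had WT means of 4.07 and 10.76 (difference -4.18, adjusted p = 1.36e-06). Serf2 (-5.95), Rab11a, a GTPase of recycling endosomes (-4.62), Ndufa1 of complex I (-4.89) and App, the amyloid precursor protein (-5.29), behaved alike, with WT 12 h means of 2.42 to 4.95. Of the 41 genes named in the text or by the same rule whose difference was called, 15 were called higher in Sdc4-/- cells and still rose more in WT cells, and all 41 had a WT 12 h mean under 5.5. Such a level was common, since 2832 to 3982 of 45101 probe sets lay above 5 on the WT 12 h arrays. Mki67, at -1.36 in Sdc4-/- cells, had WT means of 4.62 and 8.96 (difference -5.69, adjusted p = 0.00614).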

How the data were processed

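RNA of syndecan-3-sorted cells was hybridized to Affymetrix mouse genome GeneChip arrays, and the authors deposited log2 values made with GCOS and GCRMA, whose versions are not given in the sources used here. The deposited log2 values were used as they stand, with no further normalization. Arrays have no read depth, and their number limits the precision. Groups were taken from the sample titles. Nothing in the labels ties the arrays of a group to separate animals, and the p-values therefore describe only how far these samples spread, which may be technical.

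The members, the gene lists and the tests were chosen with earlier results of these data known. A linear model with 1 mean per group was fitted with limma 3.58.1 in R 4.3.3 to 17 arrays (11 residual degrees of freedom), the 48 h minus 12 h contrast was tested with eBayes, and p-values were adjusted by Benjamini-Hochberg over 45101 probe sets, as were those of the WT contrast and of the difference between genotypes. The methods state that 1 WT uninjured array was removed without giving its number. Replicate 3 of that group was left out here, and all 18 arrays were an alternative. Same-numbered 12 h and 48 h arrays did not deviate together (correlations of 0.03, -0.07 and -0.11), so the numbers were not used to pair them. The fit was tested on simulated data.

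Of the probe sets 34958 had 1 symbol, 932 several and 9211 none, and 34754 were matched by Entrez ID. Each of the 18194 symbols was represented by its probe set with the highest mean over the 17 arrays. The 40 gene lists hold 857 genes, of which 799 were matched. Named genes were the muscle and sort markers, the 15 largest called rises and 15 largest called falls without overlap and with a higher mean of at least 6, up to 6 called members of a list by adjusted p or the 2 brightest where none was called, 5 genotype differences each way, and called genes among the qPCR targets of the methods. Other list members named with values were chosen after their values were seen. Promoters came from RefSeq tables of GRCm38.p6. At least 2-fold with an unadjusted p of 0.01 or less, the threshold in the methods, was counted as well. Alternatives changed the arrays, the moderation, the normalization, a filter on dim probe sets, a covariate of hybridization controls and the replicate block, or left out arrays singly.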

Additional observations from a re-analysis of the deposited data

Results flagged for a closer look

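For 41 named genes the change from 12 h to 48 h differed between Sdc4-/- and WT sorted cells by limma's test of the difference itself. Values are the Sdc4-/- log2 change minus the WT log2 change, and the Sdc4-/- and WT changes rest on 3 arrays a group. The sign was the same in every alternative that tested the gene for all 41, and 18 were called in each. Called in fewest were Creld2 (3 of 18), Ifit2 and Lig1 (5 of 17), Ctso (6 of 17), Egr3 (6 of 18), Fst (7 of 17) and Retnla (7 of 18). Genotype and strain cannot be told apart, and the WT 12 h mean was under 5.5 for all 41. That level does not set them apart, since 2832 to 3982 of 45101 probe sets lay above 5 on the WT 12 h arrays.

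More positive in Sdc4-/- cells were 12 genes. The macrophage marker Gpnmb (4.28), the phosphatase Ptpro (4.38), the cathepsin Ctso (2.81) and the interferon-stimulated genes Bst2 (3.79) and Ifit2 (2.88) were among them. Gpnmb was the 1 of 27 monocyte and macrophage markers in this direction, while 5 were more negative (0.973% and 2.1% of all symbols). Lig1 (2.80) and Birc5 (0.86) were the cell cycle genes, and the others were Hccs (2.60), Rabl3 (1.64), Htr2b (1.57), Ccdc90b (4.61) and Carmil1 (2.01).

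More negative in Sdc4-/- cells were 29 genes. Inflammatory and secreted products were Cxcl13 (-7.00), Cxcl5 (-5.27), Wfdc21 (-5.04), Serpinb2 (-7.28), Retnla (-4.00), Csf1 (-3.13), Il6 (-6.76), Trem1 (-4.40), Mmp9 (-4.54) and Fst (-3.60). Mki67 (-5.69), Egr3 (-3.21), the adhesion molecule Vcam1 (-3.81) and fibronectin, Fn1 (-6.10), had differences of like size.

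Genes of lysosomes, mitochondria and protein handling were Atp6v1a (-2.52), Psap (-2.63), Atp6v0d1 (-2.97), Atp5c1 (-5.33), Ndufa1 (-4.89), Psma2 (-2.71), Ssr1 (-2.97), Creld2 (-2.83) and Calr (-5.01). RNA regulators were Snrpa1 (-5.31) and Cnot7 (-2.64). The remaining genes were Washc5 (-4.18), Serf2 (-5.95), Rab11a (-4.62) and App (-5.29). Of the 29, 15 were called higher at 48 h in Sdc4-/- cells and rose more in WT cells.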

How the results depend on the processing

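Of 160 named genes 127 were called. With the blocked fit of only the 6 arrays 0 of them were called by limma, and 31 were called in each of the other alternatives that tested them. No named gene reversed. Quantile normalization lost 62 of the calls, the fit of only the 6 arrays 61 and the hybridization-control covariate 38. The alternatives that centred bright probe sets, blocked the 6 arrays or left out WT 12 h arrays were chosen after seeing the data. The 2381 rises became 772 after quantile normalization, 1367 with a hybridization-control covariate and 108 when only those of mean 6 or more were kept and centred on their median, and 1432 to 2062 with single Sdc4-/- arrays left out (1432 without 12 h replicate 1) or 2335 to 2400 without a WT 12 h array. The 317 falls became 7943 after a 75th percentile shift, 206 with a mean of at least 4, 131 when bright probe sets were centred, and 137 to 666 with single arrays left out, 477 and 666 without 12 h replicates 2 and 3 and 173, 137 and 167 without 48 h replicates 1, 2 and 3. The share of calls that were rises was 88.3%, against 70.7% after quantile normalization, 26.2% after the 75th percentile shift, 78.3% with the covariate and 45.2% when bright probe sets were centred. At the 2-fold threshold the 3144 rises became 1322 (quantile) and 193 (centred), with 2453 to 3148 when single arrays were left out, and the 307 falls became 164 (only the 6 arrays), 584 (quantile), 587 (75th percentile) and 174 (mean of at least 4), with 203 to 516 when single arrays were left out. The 1006 genotype differences became 605 with all 18 arrays, 463 when centred, and 792 to 2183 with single arrays left out (2183 without WT 12 h replicate 1). The 5577 WT calls became 3370 (all 18 arrays), 3503 (75th percentile), 3235 (mean of at least 4), 1551 (covariate) and 1368 (centred), with 4709 to 7319 when single arrays were left out. The cause of these shifts was not tested.

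With the replicate number as a block in the 17 arrays there were 2190 rises, 272 falls and 825 genotype differences, none over 1.5 times from the fit without it. In the 6 arrays alone the block left 2 degrees of freedom and limma called 0 rises and 0 falls, with 6629 probe sets at an unadjusted p under 0.05, and 107 falls at the 2-fold threshold. The 48 h arrays had a mean of 2236 more probe sets above 5 than the 12 h arrays, 1700 above 4 and 1779 above 6. Signal near background limits the dim genes, as 41 of the 149 symbols called lower had both means under 4.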
